A study of Sus scrofa with 6 samples.

Results

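The proteasome genes described here are the transcripts whose deposited best protein match is described as a proteasome protein or as a 26S protease regulatory subunit. Of 20523 transcripts in the table, 56 met this rule, and they stand for 42 distinct subunits or factors. Of these, 13 belong to the core particle (7 alpha and 6 beta subunits), 15 to the regulatory particle (6 of the base and 9 of the lid), 4 are activators, 9 are assembly or associated factors, and 1 is an immunoproteasome subunit. The libraries came from 3 whole pig embryos homozygous for 2 variants at VRTN that are tied to vertebral number (QQ) and from 3 wild-type embryos (WT, qq). All embryos were of the Large White breed and between 17.5 and 18.0 days post coitum, and their extra-embryonic tissue was used to read the genotype. The labels give no litter, dam or sex, so p-values measure only the spread between these 6 embryos.

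The proteasome degrades proteins that carry ubiquitin. Its barrel-shaped core, the 20S particle, is built of stacked rings, with alpha subunits gating the entrance and beta subunits lining the chamber, where PSMB5, PSMB6 and PSMB7 hold the catalytic sites. The 19S regulatory particle sits on the end of the barrel: its base holds the PSMC ATPases, which unfold substrates, and its lid holds PSMD14, which removes ubiquitin. In cells exposed to interferon gamma the inducible subunits PSMB8, PSMB9 and PSMB10 take the catalytic places and form the immunoproteasome, which is best known from antigen-presenting cells.

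In units of 1000000 uniquely mapped reads, the totals were 13.5, 12.6 and 12.2 in QQ libraries 1 to 3, against 12.5, 12.8 and 13.4 in WT libraries 1 to 3. WT replicate 3 stood apart: on the first principal component, with 57.7% of the variance, it lay at -61.7, against 10.9, 28.9 and 29.99 in QQ replicates 1 to 3 and -9.13 and 1.00 in WT replicates 1 and 2. Class medians, and the genes described in full, are therefore given with and without it. Genes of embryonic tissues such as SOX2 and PAX3 were measured in each of the 6 libraries, with 14 of 14 measured genes of that list past the filter on low counts. Levels are given as deposited RPKM, reads per 1000 bases of transcript and per 1000000 reads. Fold changes come from edgeR, which in addition rescales libraries by TMM factors of 0.933 to 1.06, so a fold change can differ from the ratio of the RPKM means.

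Proteasome transcripts were abundant, and most had lower fitted values in QQ than in WT embryos, but none passed the test. Of the 42 subunits and factors, 40 had enough reads to be tested, each represented by its transcript with the most reads. The edgeR quasi-likelihood test with Benjamini-Hochberg adjustment called 0 of them lower and 0 higher at an adjusted p under 0.05. Over all 13957 tested transcripts it called 0.0% lower and 0.0% higher. DESeq2 also called 0 of the 40 at an adjusted p under 0.05, beside 0.0573% of all transcripts lower and 0.738% higher, and so did limma on log2 RPKM. At an unadjusted p under 0.05, edgeR had 18 of the 40 lower (45.0%) and 0 higher, where the shares over all tested transcripts were 9.29% lower and 11.0% higher. DESeq2 had the same numbers, beside 7.85% of all transcripts lower and 11.3% higher. The smallest edgeR adjusted p was 0.233, shared by 12 of the 40 genes, and over 16 other settings the adjusted p of these genes ran from 0.129 to 1.00.

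In the edgeR fit, 35 of the 40 genes (87.5%) had a log2 fold change below 0, beside 50.3% of all tested transcripts. Their median was -0.26, with a range from -0.58 for PSMB3 to 0.16 for PSME4, and the median of all tested transcripts was -0.0027. Every QQ library lay below every WT library in RPKM for 16 of the 40 genes (beside 9.07% of all tested transcripts), and above for 0 (beside 18.8%). The remaining 24 genes overlapped between the groups.

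Part of this difference came with 1 library. WT replicate 3 had the highest RPKM of the 6 libraries for 27 of the 40 genes (67.5%), beside 25.3% of all tested transcripts. Without it, 36 of the 40 genes still had a log2 fold change below 0, beside 50.4% of all transcripts, but the median was -0.17. At an unadjusted p under 0.05 there were then 7 lower and 0 higher, beside 5.15% of all transcripts lower and 8.55% higher. At an adjusted p under 0.05 edgeR then called 0 of the 40, beside 0.0% of all transcripts lower and 0.00703% higher. The number of members lower at an unadjusted p under 0.05 was 3 without QQ replicate 2 and 2 without QQ replicate 3, beside 3.05% and 2.70% of all transcripts. The scaling also moved the values. On RPKM without TMM scaling, in limma, 30 genes were lower and 10 higher with a median of -0.16, while 39.5% of all transcripts were lower with a median of 0.08, so the members lay 0.24 below. After quantile normalization 31 genes were lower and 9 higher with a median of -0.095, while 55.6% of all transcripts were lower with a median of -0.04, a gap of only 0.05. In bulk RNA of whole embryos, fewer cells of a type and less RNA per cell cannot be told apart.

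**Figure D1:**
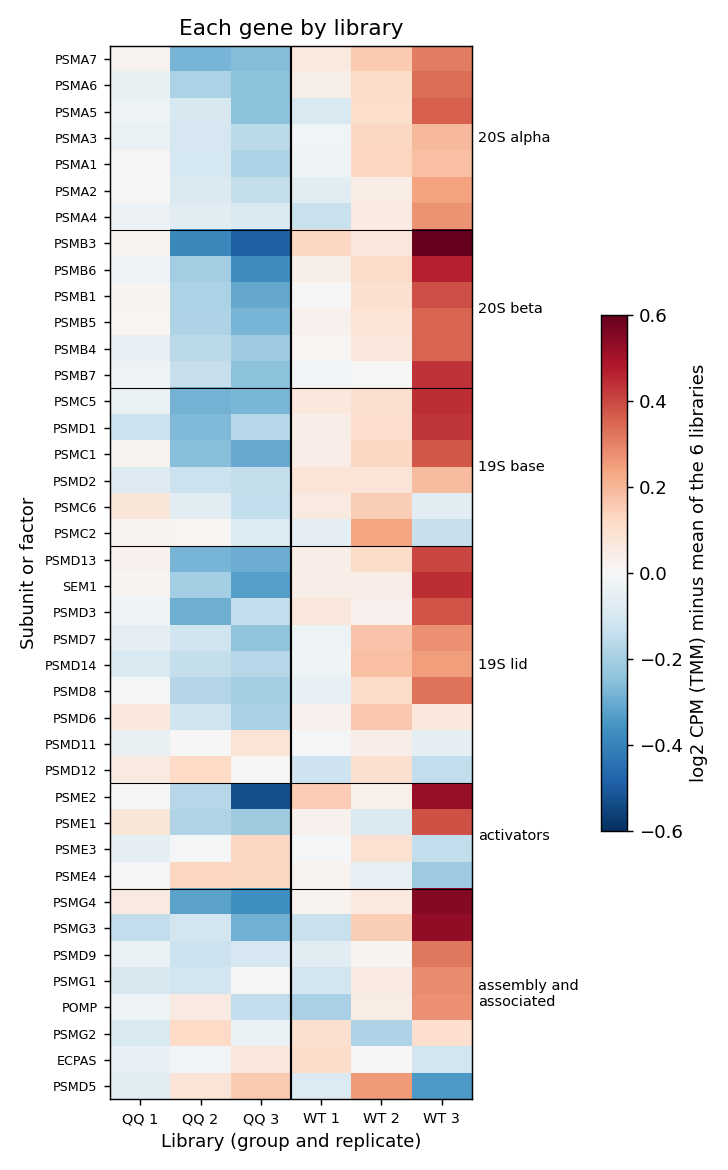
Each of 40 proteasome genes (rows) in 3 QQ and 3 WT libraries (columns), as log2 CPM (counts per 1000000 reads) with TMM scaling minus the gene's mean over the 6 libraries. WT replicate 3 is the darkest red column, with a median of 0.31 over the 40 genes, and QQ replicate 3 the darkest blue, with a median of -0.19.

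The heat map of genes by library shows how far each library departed from the mean. The median deviation over the 40 genes was -0.030, -0.13 and -0.19 on the log2 scale in QQ replicates 1 to 3, against 0.016, 0.093 and 0.31 in WT replicates 1 to 3. All 56 transcripts of the rule, tested or not, together took 0.674%, 0.675% and 0.648% of the reads in QQ replicates 1 to 3. In WT replicates 1 to 3 they took 0.687%, 0.724% and 0.772%. On this share the groups did not overlap, QQ replicate 1 and WT replicate 1 lay close together, and WT replicate 3 was the farthest out.

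Core particle genes were among the most abundant members, at a median of 177 RPKM over the 13 genes. The 7 alpha genes had a median of 156 RPKM, from 57.7 for PSMA4 to 191 for PSMA7, and the 6 beta genes a median of 269 RPKM, from 104 for PSMB3 to 296 for PSMB6. All 13 core genes had lower fitted values in QQ embryos, beside 50.3% of all tested transcripts, and their median log2 fold change was -0.29. At an unadjusted p under 0.05, 7 of them were lower, beside 9.29% of all transcripts. Without WT replicate 3 all 13 were again lower (beside 50.4%), with a median of -0.19, and 4 were lower at that threshold (beside 5.15%). After quantile normalization 12 of the 13 were lower, with a median of -0.076, beside 55.6% of all transcripts with a median of -0.04.

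The 3 constitutive catalytic subunits were the top of the core list and lay within a narrow band of each other. PSMB6, the caspase-like subunit, had 283, 269 and 237 RPKM in QQ replicates 1 to 3, against 296, 311 and 377 RPKM in WT replicates 1 to 3. PSMB5, the chymotrypsin-like subunit, had 275, 259 and 239 RPKM in the QQ libraries, against 278, 288 and 329 RPKM in the WT libraries. PSMB7, the trypsin-like subunit, had 269, 268 and 245 RPKM in the QQ libraries, against 271, 273 and 350 RPKM in the WT libraries. For each of the 3 genes every QQ library was below every WT library, the lowest value was in QQ replicate 3 and the highest in WT replicate 3, and the gap between QQ replicate 1 and WT replicate 1 was small. The means were 263 ± 23.6 RPKM in QQ and 328 ± 43.1 RPKM in WT embryos for PSMB6, 258 ± 18.1 and 298 ± 26.6 RPKM in QQ and WT for PSMB5, and 261 ± 13.2 and 298 ± 45.0 RPKM in QQ and WT for PSMB7 (SD, n = 3 each). Their log2 fold changes were -0.41 ± 0.14, -0.31 ± 0.13 and -0.29 ± 0.14 (SE), with edgeR adjusted p-values of 0.233, 0.234 and 0.265. Without WT replicate 3 they were -0.28, -0.21 and -0.13, so the value of PSMB7 moved most of the 3.

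PSMB3, a beta subunit without a catalytic site, had the largest difference among the 40 genes. It had 101, 81.9 and 75.4 RPKM in QQ replicates 1 to 3, against 109, 104 and 150 RPKM in WT replicates 1 to 3. The groups did not overlap, and WT replicate 3 stood well above the rest. The log2 fold change was -0.58 ± 0.20 (SE, edgeR adjusted p = 0.233), and -0.37 without WT replicate 3. Its transcript is short, at 325 bp. The other 2 beta genes, PSMB1 and PSMB4, had log2 fold changes of -0.32 and -0.29. The 6 beta genes had a median of -0.31, and 5 of them an unadjusted p under 0.05, beside 9.29% of all transcripts lower. Without WT replicate 3 the median was -0.21, with 2 at that threshold, beside 5.15%.

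The 7 alpha genes had smaller values, at a median log2 fold change of -0.20 (-0.15 without WT replicate 3). Of them 2, PSMA6 and PSMA7, had an unadjusted p under 0.05, beside 9.29% of all transcripts lower. PSMA7 had 191, 167 and 167 RPKM in QQ replicates 1 to 3, against 195, 209 and 220 RPKM in WT replicates 1 to 3. PSMA6 had 169, 164 and 156 RPKM in the QQ libraries, against 178, 187 and 207 RPKM in the WT libraries. Both had every QQ library below every WT library. Their log2 fold changes were -0.35 ± 0.12 and -0.32 ± 0.12 (SE, edgeR adjusted p = 0.233 each), and -0.28 and -0.23 without WT replicate 3. PSMA4, the least abundant core gene, had 55.6, 58.6 and 56.9 RPKM in the QQ libraries, against 51.7, 58.7 and 64.8 RPKM in the WT libraries. Its groups overlapped, and its log2 fold change of -0.13 ± 0.12 (SE) was -0.03 without WT replicate 3. PSMA1, PSMA2, PSMA3 and PSMA5 lay between -0.26 and -0.15 with overlapping groups. The difference between the alpha and beta medians was not tested.

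**Figure D2:**
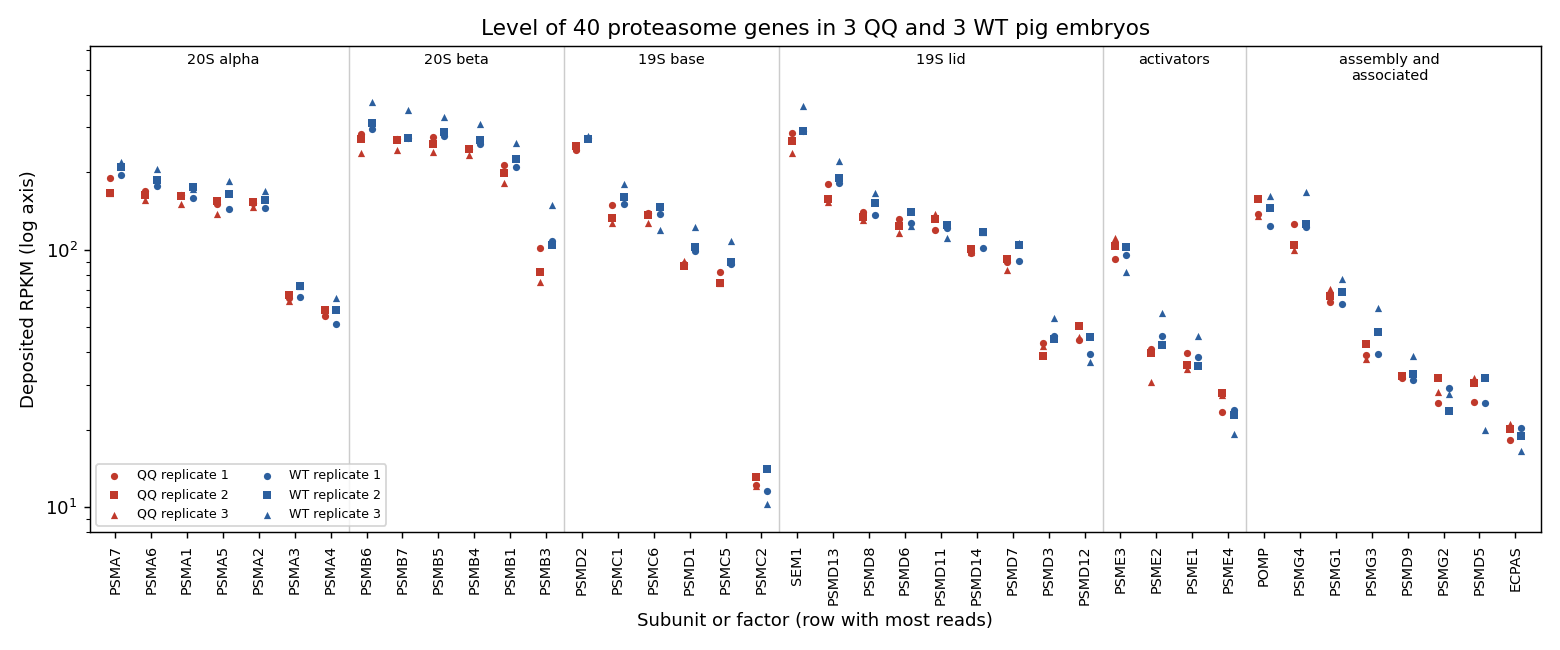
Deposited RPKM (log axis) of 40 proteasome genes in 3 QQ libraries (red, left of each gene) and 3 WT libraries (blue, right), grouped by role and ordered by mean level. PSMD2, SEM1 and the beta subunits other than PSMB3 are among the highest, PSMC2 lies near 12 RPKM, and triangles, replicate 3 of each group, are often the lowest QQ and the highest WT value.

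Regulatory particle genes had a median of 124 RPKM over 15 genes. In the lid, the highest gene was 6.57 times the lowest in mean RPKM, while the alpha and beta genes spanned 3.32 and 2.85 times. The base spanned 21.3 times, which rests on PSMC2, a transcript covered by reads over at most 20.6% of its length; without PSMC2 it spanned 3.03 times. The median core gene stood 1.32 to 1.42 times above the median regulatory gene in the QQ libraries and 1.46 to 1.73 times in the WT libraries. In the fit 13 of the 15 were lower in QQ embryos, beside 50.3% of all tested transcripts. The median log2 fold change of the 15 was -0.28, and 9 had an unadjusted p under 0.05, beside 9.29% of all transcripts lower. Without WT replicate 3, 14 of 15 were lower (beside 50.4%), with a median of -0.20 and 3 at that threshold (beside 5.15%). On RPKM without TMM scaling 11 of 15 were lower, with a median of -0.18, beside 39.5% of all transcripts with a median of 0.08.

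Among the 6 base genes, all lower in the fit, PSMC5 and PSMD1 had the smallest p. PSMC5, an ATPase of the ring, had 82.0, 74.5 and 74.2 RPKM in QQ replicates 1 to 3, against 88.0, 89.7 and 108 RPKM in WT replicates 1 to 3. PSMD1, a large scaffold subunit, had 88.1, 86.3 and 90.7 RPKM in the QQ libraries, against 98.7, 103 and 122 RPKM in the WT libraries. In both genes the groups were apart and WT replicate 3 was highest, and the 3 QQ values of PSMD1 lay within a narrow range. The log2 fold changes were -0.41 ± 0.13 for PSMC5 and -0.39 ± 0.12 for PSMD1 (SE, edgeR adjusted p = 0.233 each), and -0.28 and -0.26 without WT replicate 3. PSMC1, another ATPase, and PSMD2, the scaffold subunit that binds ubiquitin shuttles, followed at -0.36 and -0.23, also with groups that did not overlap. PSMD2 was the most abundant base gene, at 249 ± 4.98 RPKM in QQ and 273 ± 3.89 RPKM in WT embryos (SD, n = 3 each), with little spread in either group.

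The ATPases PSMC6 and PSMC2 differed less, at -0.09 and -0.04. PSMC2 was the least abundant regulatory gene, with 12.2, 13.1 and 12.1 RPKM in the QQ libraries, against 11.6, 14.1 and 10.3 RPKM in the WT libraries. Its groups overlapped, its sign turned under 4 other settings (to 0.06 in limma on RPKM and 0.08 without WT replicate 2), and reads covered 14.9% to 20.6% of its transcript over the 6 libraries. Without WT replicate 3 its log2 fold change was -0.12.

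In the lid, SEM1, a very small acidic subunit, was the most abundant regulatory gene. It had 285, 264 and 239 RPKM in QQ replicates 1 to 3, against 290, 289 and 362 RPKM in WT replicates 1 to 3. PSMD13, a scaffold subunit, had 181, 157 and 153 RPKM in the QQ libraries, against 182, 191 and 221 RPKM in the WT libraries. PSMD14, the deubiquitinating enzyme, had 97.6, 101 and 98.2 RPKM in the QQ libraries, against 102, 118 and 117 RPKM in the WT libraries. The groups of all 3 were apart, by a margin of under 5 RPKM between the highest QQ and the lowest WT library in each. PSMD14 was the one of them in which WT replicate 3 was not the highest library. Log2 fold changes were -0.35 ± 0.14 for SEM1, -0.37 ± 0.14 for PSMD13 and -0.28 ± 0.11 for PSMD14 (SE, edgeR adjusted p = 0.233 each), and -0.21, -0.25 and -0.22 without WT replicate 3.

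PSMD3, PSMD6, PSMD7 and PSMD8, other lid subunits, lay between -0.32 and -0.16, and between -0.21 and -0.16 without WT replicate 3. PSMD11 and PSMD12, which belong to the scaffold of the lid, were the 2 regulatory genes with higher fitted values, at 0.02 ± 0.10 and 0.12 ± 0.11 (SE), and at -0.01 and 0.07 without WT replicate 3. PSMD12 had 44.7, 50.5 and 46.1 RPKM in the QQ libraries, against 39.4, 45.8 and 36.7 RPKM in the WT libraries, and its groups overlapped. In both PSMD11 and PSMD12 the lowest of the 6 libraries was WT replicate 3.

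**Figure D3:**
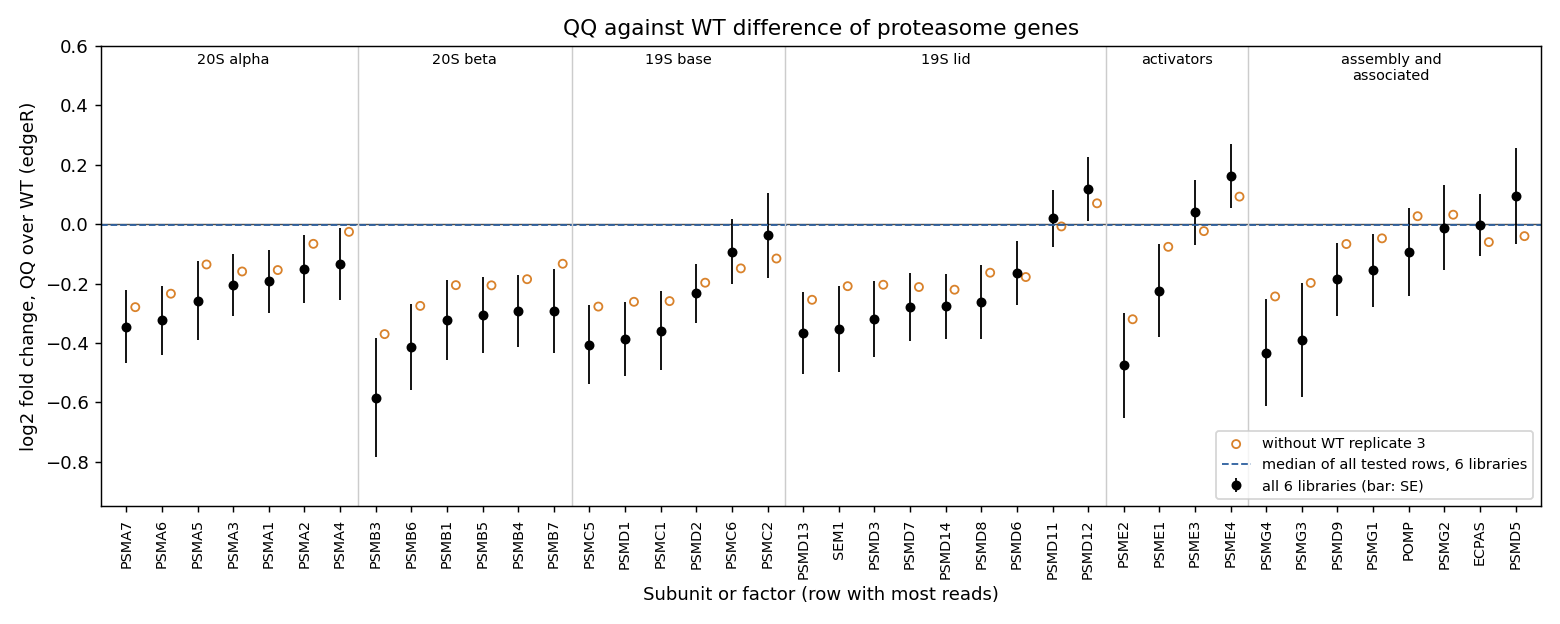
Fitted log2 fold change, QQ over WT, of 40 proteasome genes grouped by role (black points with SE bars) and the same without WT replicate 3 (open circles), with the median of all tested transcripts as a dashed line. The 13 core genes lie below 0 with and without that library, 35 of the 40 values are closer to 0 without it, and activators and assembly factors lie on both sides.

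The activators replace or join the regulatory particle at the end of the core, and their values were mixed. Of 4, 2 had lower and 2 higher fitted values in QQ embryos. The median log2 fold change was -0.09, and it was -0.05 without WT replicate 3 (3 lower, 1 higher) and turned to 0.009 on RPKM without TMM scaling. PSME2, which with PSME1 forms the interferon-inducible PA28 cap, had 41.4, 39.9 and 30.8 RPKM in QQ replicates 1 to 3, against 46.4, 42.5 and 56.8 RPKM in WT replicates 1 to 3. The groups did not overlap, and replicate 3 was the lowest QQ and the highest WT library. The log2 fold change was -0.48 ± 0.18 (SE, edgeR adjusted p = 0.233), and -0.32 without WT replicate 3. PSME1 had 39.7, 35.9 and 34.5 RPKM in the QQ libraries, against 38.3, 35.4 and 46.5 RPKM in the WT libraries, which overlapped, for a log2 fold change of -0.22 ± 0.16 (SE), and -0.08 without WT replicate 3. Another transcript of the table, described as an EMC9 protein, also has PSME1 as its deposited KEGG match. Whether this affected the reads counted for PSME1 was not tested. PSME3, the nuclear PA28 gamma cap, was the most abundant activator, with 92.5, 103 and 112 RPKM in the QQ libraries, against 95.6, 102 and 82.1 RPKM in the WT libraries, and a log2 fold change of 0.04 ± 0.11 (SE), which turned to -0.02 without WT replicate 3.

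PSME4, the large PA200 cap known for its role in sperm formation in mice, had the highest fold change of the 40 genes. Its main transcript, of 6617 bp, had 23.5, 27.8 and 27.4 RPKM in QQ replicates 1 to 3, against 24.0, 22.8 and 19.2 RPKM in WT replicates 1 to 3. QQ replicate 1 lay among the WT values, and the log2 fold change of 0.16 ± 0.11 (SE) was 0.09 without WT replicate 3 and turned to -0.04 once each library's trend with transcript length was removed. A second, shorter PSME4 transcript of 807 bp had 11.3, 15.7 and 15.4 RPKM in the QQ libraries, against 6.65, 8.68 and 2.76 RPKM in the WT libraries. Here the groups were well apart, with a log2 fold change of 1.14 ± 0.33 (SE, edgeR adjusted p = 0.233), and 0.80 without WT replicate 3, the library with the lowest value. Of the 47 member transcripts tested, it was the only one higher at an unadjusted p under 0.05, beside 11.0% of all tested transcripts. The 2 PSME4 transcripts thus differed in the size of their values, and this difference was not tested.

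Assembly and associated factors are needed to build proteasomes or attach to them. They were less abundant than the subunits, at a median of 38.9 RPKM over the 8 tested, from 19.2 for ECPAS to 144 for POMP. In the fit 7 of the 8 were lower in QQ embryos, beside 50.3% of all tested transcripts, at a median log2 fold change of -0.12. Without WT replicate 3 they were 6 of 8 (beside 50.4%), with a median of -0.05. On RPKM without TMM scaling they were 4 of 8, with a median of -0.02, beside 39.5% of all transcripts with a median of 0.08. For none of the 8 were the groups apart. Over all tested transcripts, every QQ library lay below every WT library for 9.07% and above for 18.8%. PSMG4 and PSMG3, a pair of chaperones that help to assemble the alpha ring, had the smallest p. PSMG4 had 126, 104 and 99.5 RPKM in QQ replicates 1 to 3, against 123, 126 and 168 RPKM in WT replicates 1 to 3. PSMG3 had 39.2, 43.3 and 37.7 RPKM in the QQ libraries, against 39.5, 47.9 and 59.4 RPKM in the WT libraries. In both, WT replicate 3 lay far above the others, and the log2 fold changes of -0.43 ± 0.18 and -0.39 ± 0.19 (SE, edgeR adjusted p = 0.234 and 0.272) were -0.24 and -0.20 without it.

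The partner chaperones PSMG1 and PSMG2 had log2 fold changes of -0.16 and -0.01, and POMP, which matures the core and is then degraded by it, had -0.09. Of the chaperones of the base, PSMD9 had -0.19 and PSMD5 0.10. ECPAS, a large protein that binds both particles, was at -0.0020. Without WT replicate 3, PSMG1 and PSMD9 were at -0.05 and -0.07, ECPAS was at -0.06, and the signs of PSMG2 (0.03), POMP (0.03) and PSMD5 (-0.04) turned. PSMD10, the base chaperone also called gankyrin, had 2 reads over the 3 QQ libraries and 9 over the 3 WT libraries in its 2 transcripts together, too few to be tested. Those reads came to 0.0523 CPM, counts per 1000000 reads, in QQ (exact 95% Poisson interval 0.00633 to 0.189) and 0.232 CPM in WT embryos (0.106 to 0.441), and the intervals overlap.

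The immunoproteasome was represented by PSMB9 alone, the inducible counterpart of PSMB6, and it was close to the detection limit. Its 2 transcripts together had 12 of 38270376 reads in the QQ libraries and 10 of 38783463 reads in the WT libraries. This came to 0.314 CPM in QQ (exact 95% Poisson interval 0.162 to 0.548) and 0.258 CPM in WT embryos (0.124 to 0.474), and these intervals cover counting error only. QQ replicates 1 to 3 had 4, 2 and 1 reads of the 846 bp transcript, against 3, 0 and 2 reads in WT replicates 1 to 3. Of the 959 bp transcript the QQ libraries had 2, 2 and 1 reads, against 3, 2 and 0 reads in the WT libraries. The 2 transcripts share their best protein match, and since only uniquely mapped reads were counted, reads that fit both may have been dropped. PSMB8 and PSMB10 were not analysed here, nor were the constitutive subunits PSMB2, PSMC4 and ADRM1.

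In RPKM, PSMB9 stood at 0.178%, 0.131% and 0.0769% of PSMB6 in QQ replicates 1 to 3, against 0.181%, 0.0522% and 0.0467% in WT replicates 1 to 3. The groups overlapped: the highest QQ and WT values were alike, and the p of the exact two-sided permutation test was 0.6 (with 3 libraries in each group it cannot go below 0.1). A difference in PSMB9 was not detectable at this depth. Of 12 white blood cell markers, a cell type in which PSMB9 is usually high, 9 had a transcript and 4 were tested. PTPRC and SPI1 had 1 read each over all 6 libraries, TYROBP 8, CSF1R 11 and AIF1 23, while LAPTM5 had 2024, CD14 336, CORO1A 224 and LCP1 147. The summed level ranged from 36.1 to 44.1 RPKM in the QQ libraries and from 30.6 to 39.6 RPKM in the WT libraries. Most of it was LAPTM5 alone, with 29.8 to 38.2 RPKM in QQ and 25.2 to 35.3 RPKM in WT libraries. The part of these markers in the PSMB9 values was not tested.

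The genes that induce or work with the immunoproteasome spanned a wide range of levels. Of 19 genes of the interferon response and of antigen presentation, 14 had a transcript in the table and 6 passed the filter. Over all 6 libraries TAP1, a peptide transporter, had 2 reads, and UBD, a ubiquitin-like modifier, had 1, while IRF1 had 821 and ISG15 had 551. Of the 6 tested, 0 passed edgeR's adjusted test and 5 had higher fitted values in QQ embryos. The median log2 fold change of the 6 was 0.41, and 0.55 without WT replicate 3, 0.28 without WT replicate 1 and 0.25 without QQ replicate 1. IRF1, a transcription factor that acts on the PSMB9 promoter in human cells, had 8.13, 3.51 and 8.25 RPKM in QQ replicates 1 to 3, against 3.15, 4.03 and 3.28 RPKM in WT replicates 1 to 3. QQ replicate 2 lay among the WT values, and the log2 fold change was 0.84 ± 0.32 (SE, edgeR adjusted p = 0.233), and 0.82 without WT replicate 3. ISG15, a ubiquitin-like protein, was at 0.70 ± 0.33 (SE, edgeR adjusted p = 0.256), and 0.72 without WT replicate 3. Neither IRF1 nor ISG15 passed the test.

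Genes that feed substrates to the proteasome showed no common direction. In each of the next 3 lists 0 genes passed edgeR's adjusted test. Of 4 measured genes of ubiquitin supply, 3 were lower and 1 higher, with a median log2 fold change of -0.29, which was -0.17 without WT replicate 3 and -0.53 without QQ replicate 1. RPS27A, whose product is a ubiquitin fused to a ribosomal protein, had 3159, 2677 and 2585 RPKM in QQ replicates 1 to 3, against 3134, 3318 and 3813 RPKM in WT replicates 1 to 3. QQ replicate 1 overlapped with WT replicate 1, and the log2 fold change was -0.38 ± 0.15 (SE, edgeR adjusted p = 0.233), and -0.27 without WT replicate 3. UBA1, the main ubiquitin-activating enzyme, had a log2 fold change of -0.98 ± 0.28 (SE, adjusted p = 0.233), and -0.88 without WT replicate 3, on a transcript with only 144 reads in all libraries. UBA6, the other activating enzyme, had 0.54 ± 0.22 (SE, adjusted p = 0.233), and 0.32 without WT replicate 3.

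Of 8 measured ubiquitin shuttles and enzymes that bind the proteasome, 5 were higher and 3 lower, with a median log2 fold change of 0.04 that was -0.04 without WT replicate 3 and 0.12 without WT replicate 2. UBQLN4, a shuttle that carries ubiquitinated proteins, was at -0.19 ± 0.11 (SE), and -0.12 without WT replicate 3.

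NFE2L1 is the transcription factor that raises proteasome genes when proteasome activity is short. It had 13.7, 14.5 and 16.9 RPKM in the QQ libraries, against 14.8, 13.7 and 12.2 RPKM in the WT libraries, which overlapped, and a log2 fold change of 0.05 ± 0.16 (SE), which was 0.00085 without WT replicate 3. Of the 9 measured genes of its pathway, 4 were higher and 5 lower, with a median of -0.0028, which was 0.0093 without WT replicate 3. UFD1 and VCP, which extract proteins from the endoplasmic reticulum membrane, had the smallest p of that list, at -0.19 ± 0.10 and -0.17 ± 0.11 (SE, edgeR adjusted p = 0.294 and 0.372), and at -0.15 and -0.12 without WT replicate 3.

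PSMC3 and PSMD4 are proteasome subunits whose transcripts fell outside the rule because their matches are described in other words. PSMC3, an ATPase of the base, had 72.4, 67.7 and 64.1 RPKM in QQ replicates 1 to 3, against 78.0, 82.2 and 93.2 RPKM in WT replicates 1 to 3. PSMD4, a ubiquitin receptor, had 163, 156 and 150 RPKM in the QQ libraries, against 173, 183 and 223 RPKM in the WT libraries. Both had groups that did not overlap and WT replicate 3 as the highest library. Their log2 fold changes of -0.41 ± 0.13 and -0.40 ± 0.14 (SE, edgeR adjusted p = 0.233 each) were -0.31 and -0.26 without WT replicate 3. PAAF1 and PSMC3IP, also looked at outside the rule, had overlapping groups. They had log2 fold changes of -0.07 ± 0.16 and -0.38 ± 0.19 (SE), and 0.14 and -0.19 without WT replicate 3.

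The difference also moved with transcript length among the members. Across the 40 genes, the correlation of log2 length with log2 fold change was 0.51 (Pearson) and 0.46 (Spearman), across the 13 core genes 0.88 and 0.76, and across the 15 regulatory genes 0.35 and 0.23. These are descriptions across genes that share libraries and are no independent replicates. Over all 13957 tested transcripts the correlations were 0.060 and 0.11, and among the 40 genes they were 0.36 and 0.31 without WT replicate 3. The 24 genes with transcripts under 1500 bp had a median log2 fold change of -0.30, with 22 lower, beside a median of -0.04 for all tested transcripts of that length. The 16 longer ones had a median of -0.17, with 13 lower, beside 0.01 for all. With each library's length trend removed, a setting chosen after seeing the data, the median over the 40 genes was -0.29, with 36 lower and 20 lower at an unadjusted p under 0.05. That setting also moved all tested transcripts, to a median of -0.07 with 57.6% lower and 13.3% lower at an unadjusted p under 0.05, so the members lay 0.22 below the median of all, against 0.26 without the correction.

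**Figure D4:**
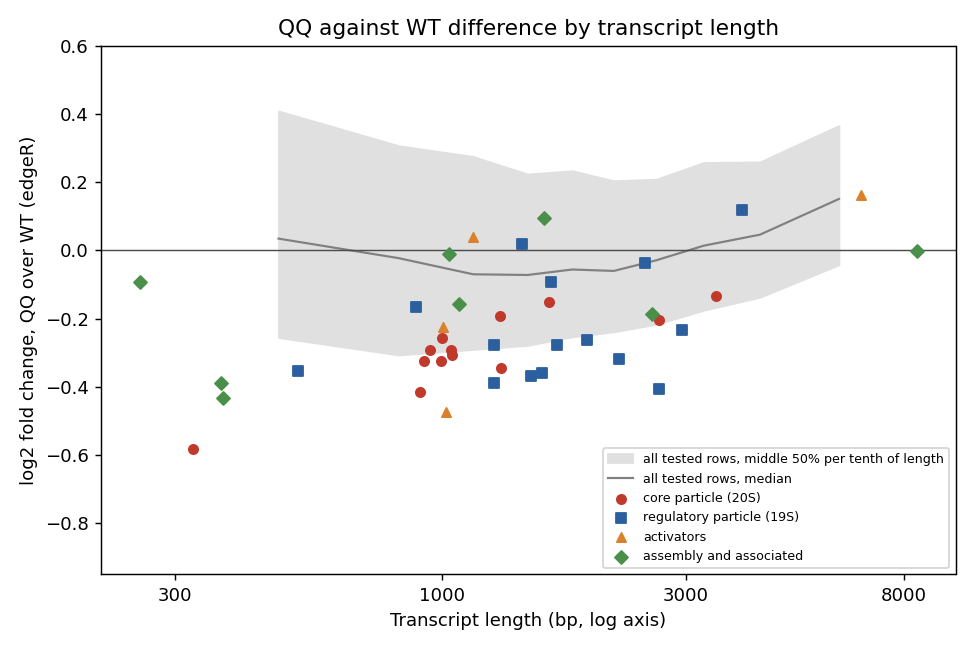
Fitted log2 fold change, QQ over WT, against transcript length (log axis) for 40 proteasome genes by role. The median (line) and the middle 50% (band) of all tested transcripts are shown in 10 bins of length that hold nearly equal numbers of transcripts. The shortest core gene, PSMB3 at 325 bp, has the lowest value at -0.58, and 22 of 24 genes under 1500 bp lie below 0.

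Markers of blood cells also differed between the libraries. Of 14 erythroid markers, 12 had a transcript and 10 were tested. All 10 had lower fitted values in QQ embryos, at a median log2 fold change of -0.75, and 0 passed edgeR's adjusted test. The median rested on single libraries: it was -0.20 without WT replicate 1, -0.33 without QQ replicate 2, -1.25 without QQ replicate 3 and -1.0 without WT replicate 3. Their summed level, mostly HBE1 and HBZ, ranged from 296 to 3205 RPKM in the QQ and from 2156 to 7678 RPKM in the WT libraries. On this sum the groups overlapped, and HBB, ALAS2 and RHAG were at 0 reads in QQ replicate 2. NFE2 had 3.18, 1.53 and 3.68 RPKM in QQ replicates 1 to 3, against 7.14, 4.84 and 5.52 RPKM in WT replicates 1 to 3. Its log2 fold change was -1.15 ± 0.32 (SE, edgeR adjusted p = 0.233), and -1.16 without WT replicate 3. HBB, with 71 reads in all libraries, also had groups that did not overlap, and the other tested erythroid markers overlapped. The highest sum was in WT replicate 1, at 7678 RPKM, not in WT replicate 3, at 2978 RPKM, where most proteasome genes peaked. Their part in the proteasome values was not tested. The 4 tested white blood cell markers had a median of 0.15, and 0.13 without WT replicate 3. The 8 tested endothelial markers had a median of 0.11, which was 0.02 without WT replicate 3, 0.02 without QQ replicate 1 and 0.19 without QQ replicate 2. The 8 tested trophoblast markers had a median of 0.11, which was 0.13 without WT replicate 3, 0.03 without WT replicate 2, 0.07 without QQ replicate 2, -0.01 without QQ replicate 1 and -0.03 without QQ replicate 3. In each of these 3 lists 0 genes passed edgeR's adjusted test.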

How the data were processed

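Total RNA of whole embryos was made into TruSeq libraries, per the labels' protocols. The submitters' processing notes name the genome build Sscrofa10.2; which aligner and counter were run, and whether strand was used, is not given in the sources used here. Per the file headers, the deposited table holds 3 values for each transcript and library: a read count (unique hits), a percent coverage of the transcript and an RPKM. The deposited count is raw, and dashes were read as 0. The authors' RPKM equals the count scaled by transcript length and library total (largest relative gap 1.29e-07). Percent coverage, as the authors give it, only served to describe PSMC2.

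Counts of all 6 libraries were tested with edgeR 4.0.16 (R 4.3.3) without covariates: TMM, filterByExpr with a minimum count of 10 and a minimum total of 15, quasi-likelihood F tests, and Benjamini-Hochberg adjustment over 13957 transcripts at 0.05. The SE is the size of the log2 fold change divided by the square root of F. The test was checked on simulated data without an outlying library and with larger changes than most of those described here. That check therefore does not cover small differences or the place of WT replicate 3. DESeq2 1.42.0 and limma 3.58.1 on log2(RPKM + 0.5), with pseudocounts of 0.1 and 1, served as alternatives, with other filters and scalings, a replicate block and leaving out each library. With 12.2 to 13.5 times 1000000 reads in each library, the floor of 3 reads is worth 0.222 to 0.246 CPM. Every pair of libraries differed by more than sampling noise (chi-square per degree of freedom of 8.03 or more).

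Subunit names were taken from the deposited KEGG orthology, which gave the number of the description in 49 of 56 transcripts and a different one in 0, with no number in 7. Other symbols came from the pig protein accession (7185 transcripts), the KEGG pig gene (2287) or the description (57), through tables of Sscrofa11.1 used for names only. Where a symbol had several transcripts (13 subunits), the one with the most reads stands for it. The 9 member transcripts that were not tested had 2 to 12 reads in all libraries. Members and gene lists were chosen with earlier results of these data known. The rule for genes given by library took the catalytic subunits and the 2 genes per class with the smallest unadjusted p. It also took the highest and lowest core and regulatory genes by RPKM. In each list of interferon, ubiquitin and NFE2L1 pathway genes, the 2 tested genes with the smallest unadjusted p were to be named. Of these list genes, values per library are given for RPS27A and IRF1 only. Values per library of PSMD12, PSME1, PSME3, PSMC3, PSMD4, NFE2L1, NFE2 and the second PSME4 and PSMD1 transcripts were added after their values were seen. The planned ratios of PSMB8 to PSMB5 and PSMB10 to PSMB7, and promoter motifs, were not analysed here, and 1 gene that the rule names is not reported here. Figures were drawn with matplotlib 3.10.9.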

Additional observations from a re-analysis of the deposited data

How the results depend on the processing

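No proteasome gene had an adjusted p under 0.05 under any of 17 alternatives. Apart from DESeq2, which called 103 of all tested transcripts higher and 8 lower, no setting called more than 2 higher and 1 lower. The number of members called could therefore hardly move. The median over all members had the same direction in each of the 17, and those of the core and the regulatory particle in each of the 16 run for them. Values and numbers at an unadjusted p under 0.05 did move; the cause was not tested. Leaving out 1 library at a time gave 2 to 21 genes lower at that threshold, against 18 with all libraries (beside 9.29% of all transcripts). The 2 came without QQ replicate 3, beside 2.70% of all transcripts, and the 21 without WT replicate 1, beside 8.33%. Without WT replicate 2 there were 16, beside 11.01%. The number was 9 in limma with each of the pseudocounts 0.1, 0.5 and 1, beside 4.49%, 4.59% and 4.61% of all transcripts lower, and 6 after quantile normalization, beside 9.77%, which also moved the medians to -0.095 over all members, -0.076 in the core and -0.13 in the regulatory particle. With every transcript of the rule in place of 1 per subunit, 1 of the 47 tested was higher at that threshold, beside 11.0% of all transcripts. The activator median was 0.0087, 0.0090 and 0.0094 in limma with pseudocounts 0.1, 0.5 and 1, -0.0085 after quantile normalization and, in the setting chosen after seeing the data, -0.15 with the length trend removed. The sign of PSMC2 turned in limma (0.065, 0.063 and 0.060 with pseudocounts 0.1, 0.5 and 1) and without WT replicate 2 (leaving out 1 library at a time gave -0.12 to 0.080), and that of PSME4 with the length trend removed (-0.040). Leaving out 1 library at a time, the median of ubiquitin supply ran from -0.53 to -0.17 and that of the NFE2L1 pathway from -0.046 to 0.020.

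Replicate numbers are shared by the groups, and the labels do not say whether they pair the embryos. Deviations of same-numbered QQ and WT libraries correlated at -0.19, 0.21 and -0.056, and those of differently numbered libraries at -0.17 to 0.22. With so few libraries these values cannot decide whether embryos were paired. With the replicate number as a block, 10 genes were lower at an unadjusted p under 0.05, beside 5.6% of all transcripts.

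The transcripts that stand for a subunit differ in length and can be fragments of a gene. Only 3 embryos per genotype and the depth of the libraries limit the precision, so a difference in PSMB9 or PSMD10, at under 1 CPM, was not detectable.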

Other observations

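Several subunits have more than 1 transcript in the table, and with all libraries these did not always have the same direction. The transcript of PSMD1 that stands for it above, of 1263 bp, had a log2 fold change of -0.39 ± 0.12 (SE), while a second PSMD1 transcript of 2122 bp had 49.3, 58.6 and 63.2 RPKM in QQ replicates 1 to 3, against 49.3, 53.7 and 45.1 RPKM in WT replicates 1 to 3, and a log2 fold change of 0.11 ± 0.11. The groups of the second transcript overlapped, and neither passed edgeR's adjusted test. Without WT replicate 3 the PSMD1 transcripts of 1263 bp and 2122 bp were at -0.26 and 0.07. PSMD5, a base chaperone, had 0.10 ± 0.16 in its transcript of 1583 bp and -0.18 ± 0.16 in that of 1274 bp. Without WT replicate 3 both were lower, at -0.04 and -0.10. The chaperone PSMG2 had -0.01 ± 0.14 in the transcript of 1029 bp, 0.21 ± 0.18 in that of 323 bp and 0.28 ± 0.27 in that of 783 bp. Without WT replicate 3 all were higher, at 0.03, 0.25 and 0.19. The transcript of 783 bp had only 139 reads in all libraries. The second transcripts of PSME2 and PSMD6 had lower values, like those that stand for these genes, at -0.56 ± 0.27 and -0.19 ± 0.14. Without WT replicate 3 these second transcripts were at -0.57 and -0.05. The differences between transcripts of 1 gene were not tested.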
